A study of Mus musculus with 12 samples.

Results

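The insulin-like growth factor (IGF) axis was followed through its 2 receptors, Igf1r and Igf2r, its 2 ligands, Igf1 and Igf2, and 6 binding proteins, Igfbp2, Igfbp3, Igfbp4, Igfbp5, Igfbp6 and Igfbp7. These 10 genes were taken by symbol from a table of raw counts for 23337 genes, and all 10 were found there. The cells were NU1, a line of normal mouse urothelium that immortalised spontaneously during passaging and is therefore 1 line. Each of 4 groups had 3 libraries, 1 from each of the experiments numbered 5, 7 and 9, which the labels also give as batches 3, 1 and 2. Proliferating control cells (WT, shNT) and proliferating Stag2-KD cells (hairpin sh4) grew in complete medium with serum, EGF and insulin. Quiescent control (WT, shNT) and quiescent Stag2-KD cells (sh4) were grown to confluence, then held in the same medium with rosiglitazone at 1 µM and erlotinib at 0.5 µM until day 7. Confluence, both drugs and quiescence were applied together and cannot be told apart, and the knockdown rests on 1 hairpin. The study's title places Stag2, a cohesin subunit, beside the DREAM repressor complex in keeping urothelial cells quiescent.

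IGF1 and IGF2 are secreted peptides that activate the receptor tyrosine kinase IGF1R, which signals through IRS and SHC adaptors to the PI3K-AKT-mTOR and MAPK pathways. IGF2R, also the cation-independent mannose 6-phosphate receptor, carries IGF2 to lysosomes and sorts lysosomal enzymes. The binding proteins hold the ligands outside the cell and are cut by proteases such as PAPP-A and HTRA1. IGFBP7 binds IGFs weakly and is often treated as a related protein. In mice Igf2 is expressed from the paternal allele, and its neighbour H19, a noncoding RNA, and Igf2r from the maternal allele.

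Promoter sequence is shown for the 3 members that passed for quiescence in edgeR fits to all 12 libraries, with or without a term for experiment. Each line holds the 250 bases just before an annotated start (RefSeq, GRCm38.p6), read 5′ to 3′ on the gene's strand, and capitals mark matches to searched motifs.
Igfbp3, chr11:7213924-7214173, minus strand: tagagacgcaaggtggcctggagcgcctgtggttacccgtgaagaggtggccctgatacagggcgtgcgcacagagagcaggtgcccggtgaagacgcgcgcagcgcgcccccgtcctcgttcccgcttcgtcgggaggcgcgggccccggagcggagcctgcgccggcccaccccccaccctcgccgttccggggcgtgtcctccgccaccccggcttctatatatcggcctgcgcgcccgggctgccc
Igf2, chr7:142657497-142657746, minus strand: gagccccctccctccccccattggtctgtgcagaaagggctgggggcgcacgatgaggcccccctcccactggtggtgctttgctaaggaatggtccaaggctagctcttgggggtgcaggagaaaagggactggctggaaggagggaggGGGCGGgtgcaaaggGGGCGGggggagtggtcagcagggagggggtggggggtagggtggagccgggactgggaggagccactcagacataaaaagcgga
Igf2r, chr17:12769707-12769956, minus strand: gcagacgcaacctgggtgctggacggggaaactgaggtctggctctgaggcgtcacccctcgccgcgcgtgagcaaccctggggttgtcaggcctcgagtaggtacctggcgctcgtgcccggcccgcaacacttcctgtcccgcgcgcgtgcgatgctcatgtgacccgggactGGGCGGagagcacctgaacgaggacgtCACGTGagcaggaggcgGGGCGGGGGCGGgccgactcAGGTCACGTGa

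Both strands were searched for the GC box GGGCGG, the TATA box TATAAA, the cell cycle genes homology region TTTGAA, the E2F site TTTCGCGC, the E-box CACGTG and the nuclear receptor half-site AGGTCA. Of 32851 mouse promoter windows of this length, 32.7% held the GC box, 12.4% the TATA box, 16.0% the homology region, 0.256% the E2F site, 6.02% the E-box and 14.02% the half-site. The Igfbp3 window held none of these letters. Igf2 has 4 annotated starts in that table, and the window printed, at the one nearest the coding part of the gene, held 2 GC boxes. The Igf2r window held 3 GC boxes, 2 of which abut, 2 E-boxes and 1 half-site, which overlaps the E-box next to the start. A match describes the letters only, and the files hold no measurement of binding.

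Library totals ran from 14524429 to 21987539 counts, so that 3 counts, the limit that a count of 0 allows, stand for 0.136 to 0.207 CPM (counts scaled to a common library total, here with TMM-scaled totals). Such limits and the intervals below cover counting error only. Stag2 averaged 133 CPM ± 17.4 (SD, n = 3) in proliferating control and 27.6 ± 4.96 in proliferating knockdown cells, and 121 ± 11.3 against 12.1 ± 2.95 in quiescent cells. The proliferation marker Mki67 averaged 199.96 CPM ± 21.9 in proliferating control and 4.91 ± 3.87 in quiescent control cells. Of 18 urothelial markers 15 passed the filter on low counts, with a summed level of 11480 to 20210 CPM per library. Trp63 had no count. In proliferating control cells the highest of the 18 were Krt8, at a mean of 4600 CPM, and Krt18, at 3781. Uroplakins were low in that group, with Upk1a at 1.14 CPM, Upk2 at 0.358 and Upk1b at 0.0764, and Upk3a had no count there. Krt5 was at 3.49 CPM in the same group. Over 12 fibroblast and smooth muscle markers, frequent sources of IGFs and their binding proteins, the sum was 0.621 to 2.61 CPM, and Col1a2, Col3a1 and Lum had no count. Endothelial markers summed to at most 0.239 CPM, and leukocyte markers to 1.67 to 9.42 CPM.

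For some genes experiment 9 stood apart from experiments 5 and 7. The 4 Y-linked genes Ddx3y, Eif2s3y, Kdm5d and Uty, a set chosen after values were seen, summed to 63.2 to 108 CPM in the 4 libraries of experiment 9. In experiment 5 the sum was 5.26 to 12.1 CPM, and in experiment 7 it was 4.53 to 8.52 CPM. Xist had at most 2 counts in any library. The part of this difference in the results below was not tested, so values are given by experiment throughout. Same-numbered libraries deviated together from their group means, with a mean correlation of 0.526 over 18 pairs. Over 36 pairs with different numbers it was -0.259. That value follows largely from the first, because deviations from a mean of 3 libraries cancel out. Because same-numbered libraries deviated together, a fit with a term for experiment, the replicate block, was added. It is given beside the fit without it where it changed a call of a member, and for some other genes. The labels name experiments and not separate cultures, so p-values measure the spread between these libraries.

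Transcripts of 5 members were abundant enough to be tested: Igf1r, Igf2r, Igf2, Igfbp3 and Igfbp7. The other 5 were at or near the limit of detection. Igf1, the main circulating ligand, had 2 counts in all 12 libraries together, and Igfbp6, which prefers IGF2, had 4. Igfbp2 had 13 counts, 12 of them in quiescent cells. Igfbp5 had 38 counts, of which 31 were in quiescent cells, and 3 of the 6 quiescent libraries held 7 each. Igfbp4 ran the other way, with 42 of its 49 counts in proliferating cells. Its libraries held 7, 6 and 13 counts in proliferating control cells (experiments 5, 7 and 9) and 6, 3 and 7 in proliferating knockdown cells, against 0, 0 and 2 and then 0, 3 and 2 in quiescence. In a fit without the low-count filter Igfbp4 was lower in quiescent control cells by a log2 fold change of -3.36, with an adjusted p of 0.0570 (edgeR quasi-likelihood test, Benjamini-Hochberg), which missed the threshold of 0.05. In knockdown cells the change in the same fit was -1.67 (adjusted p = 0.319).

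Per kilobase of exon, Igfbp3 had the highest mean level of the 10 genes in every group. In proliferating control cells it stood at 95.5 CPM per kb ± 50.5 (SD, n = 3). Igfbp7 at 13.9 ± 9.23, Igf2r at 13.2 ± 7.11 and Igf1r at 13.1 ± 2.49 did not differ beyond their spread. All other members were far lower, among them Igfbp4 at 0.112 ± 0.0486 and Igf2 at 0.0628 ± 0.0923 CPM per kb, whose spreads overlapped. In quiescent control cells Igfbp3 was at 33.8 ± 6.86, Igf2r at 20.5 ± 10.1, Igf1r at 13.5 ± 2.23 and Igfbp7 at 11.6 ± 15.4 CPM per kb. The spreads of the last 3 overlapped, and Igf2 was at 0.199 ± 0.198. In quiescent knockdown cells the means were 23.2 ± 0.665 for Igfbp3 and 16.5 ± 22.5 CPM per kb for Igfbp7, and in experiment 9 of that group Igfbp7 was the higher, at 42.5 against 23.0. Dividing by the longest transcript in place of all exons put Igf1r at 19.3 CPM per kb in proliferating control cells, above Igf2r at 13.8.

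**Figure D1:**
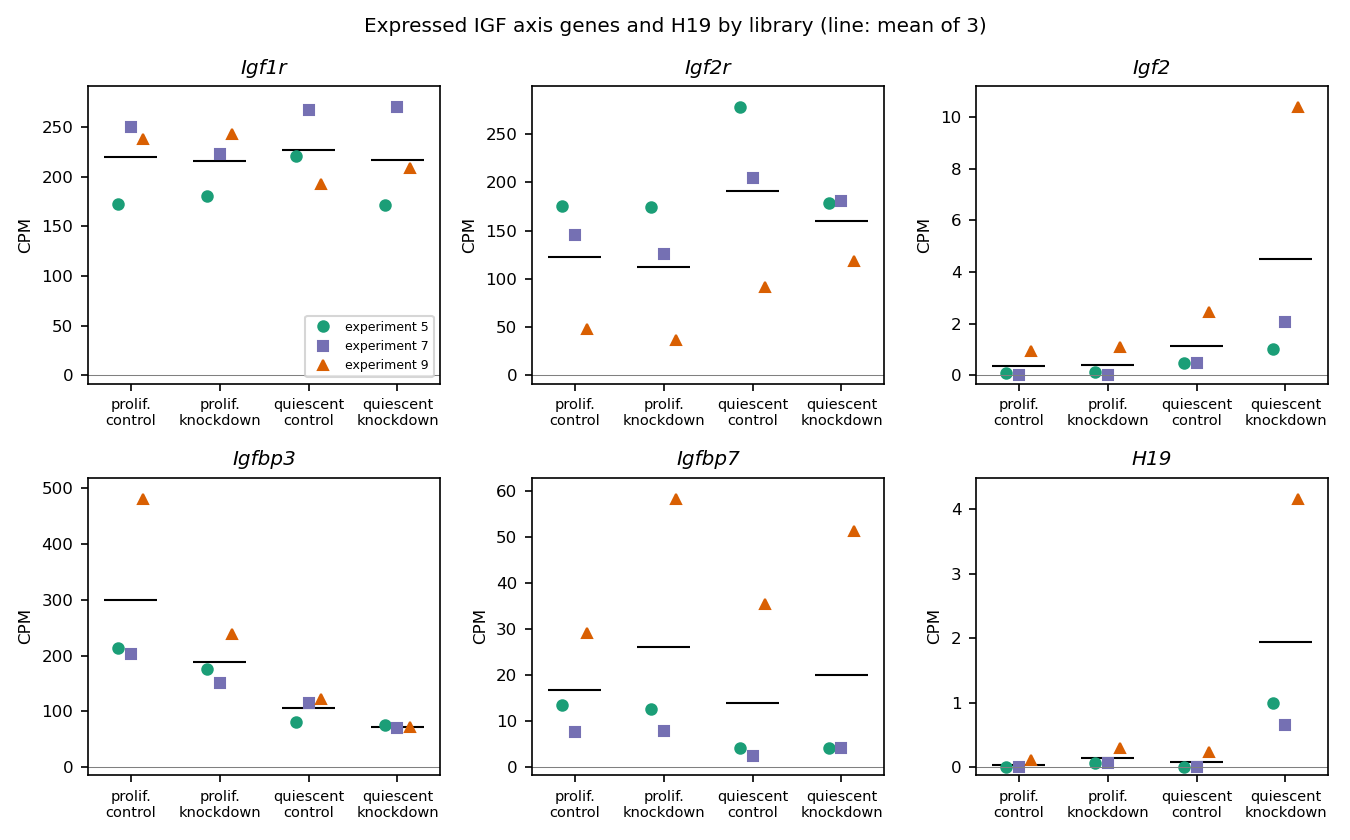
Level of the 5 tested members and H19 in each library, in CPM, by group, with a marker shape for each experiment and a line at the mean of 3. Igfbp3 is lower in all quiescent libraries, Igf1r is at similar levels in the 4 groups, and experiment 9 is the highest library for Igf2, Igfbp7 and H19 and the lowest for Igf2r in every group.

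The signalling receptor Igf1r (chromosome 7, 67952827 to 68233668, plus strand, mm10) stood at similar levels in the 4 groups. In experiments 5, 7 and 9 it measured 173, 250.2 and 238 CPM in proliferating control cells and 181, 223 and 243 CPM in proliferating knockdown cells. In quiescence it measured 221, 267 and 193 CPM with the control hairpin and 171, 269.7 and 209 CPM with the Stag2 hairpin. All 4 groups overlapped. The log2 fold change with quiescence was 0.04 (SE 0.20) in control and 0.01 (SE 0.20) in knockdown cells, and with knockdown it was -0.03 (SE 0.20) in proliferating and -0.07 (SE 0.20) in quiescent cells. None passed the threshold in either fit.

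Igf2r (chromosome 17, 12682406 to 12769664, minus strand), the clearance receptor, was higher in quiescent than in proliferating cells within each experiment. Proliferating control cells had 175, 145 and 48.4 CPM in experiments 5, 7 and 9, and quiescent control cells had 277, 205 and 91.4 CPM. With the Stag2 hairpin the values were 174, 126 and 36.3 CPM in proliferation and 179, 181 and 119 CPM in quiescence. The groups overlapped, because experiment 9 was the lowest library in each. Without the block the change with quiescence was 0.64 (SE 0.58, adjusted p = 0.466) in control and 0.51 (SE 0.58, adjusted p = 0.575) in knockdown cells. With the replicate block it was 0.68 (SE 0.24, adjusted p = 0.0506) in control cells, and 0.77 (SE 0.25, adjusted p = 0.0352) in knockdown cells, which passed. The call in knockdown cells was lost without experiment 9, where the blocked change was 0.28 (adjusted p = 0.238), and without experiment 7, where it was 0.90 (adjusted p = 0.112). In control cells leaving out experiment 9 gave 0.59 (adjusted p = 0.0402). Airn, the noncoding RNA that overlaps Igf2r in antisense, stood at 0.298 to 1.17 CPM and passed no contrast. Strand use in counting is not given in the sources used here, so reads of the overlapping pair may be shared.

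Igf2 was the only IGF ligand with appreciable counts, and it was higher in quiescent cells. Proliferating control cells held 2, 0 and 17 counts in experiments 5, 7 and 9, and proliferating knockdown cells 2, 0 and 19. Quiescent control cells held 7, 8 and 41 counts, and quiescent knockdown cells 23, 35 and 177. Within every experiment quiescent knockdown cells were highest and quiescent control cells next, and across experiments the groups overlapped. The level remained low, at 4.50 CPM ± 5.11 (SD, n = 3) in the highest group.

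Without the block no change of Igf2 passed the threshold: the log2 fold change with quiescence was 1.65 (SE 1.40, adjusted p = 0.432) in control and 3.45 (SE 1.40, adjusted p = 0.111) in knockdown cells. With the replicate block Igf2 rose in control cells by 1.88 (SE 0.63, adjusted p = 0.0392) and in knockdown cells by 3.61 (SE 0.56, adjusted p = 0.000928). The call in knockdown cells held with each experiment left out in turn, at adjusted p = 0.00745, 0.00350 and 0.0243 without experiments 5, 7 and 9. The call in control cells did not, at adjusted p = 0.107, 0.0652 and 0.131.

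Between the hairpins in quiescent cells, Igf2 was higher with Stag2 knockdown in 3 of 3 experiments but passed in neither fit, with 1.96 (SE 1.28, adjusted p = 0.615) without the block and 1.88 (SE 0.49, adjusted p = 0.0645) with it. As ratios of scaled counts with exact 95% intervals, the excess was 2.16-fold (0.897 to 5.96) in experiment 5, 4.26-fold (1.94 to 10.6) in experiment 7 and 4.24-fold (3.01 to 6.11) in experiment 9. In proliferating cells the ratio summed over experiments was 1.14 (0.581 to 2.23). The difference between the 2 knockdown effects did not pass, at 1.73 (SE 0.87, adjusted p = 0.999) with the block. Mki67 also had a higher mean in quiescent knockdown cells, at 18.9 CPM ± 14.1 against 4.91 ± 3.87 in quiescent control cells. The libraries of these groups overlapped, and the part of Mki67 in the Igf2 values was not tested.

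**Figure D2:**
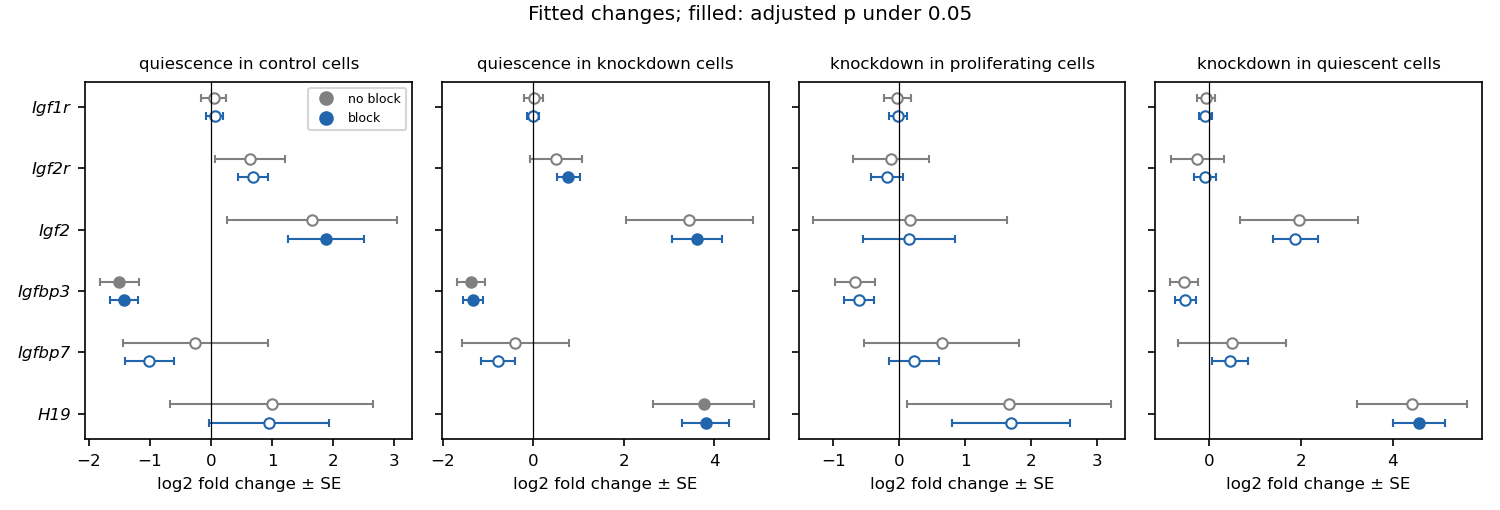
Fitted log2 fold change with its SE for 5 members and H19 in 4 comparisons, without (grey) and with (blue) the replicate block. Filled points have an adjusted p under 0.05. Igfbp3 is filled in both fits for quiescence, and Igf2, Igf2r and H19 have narrower errors with the block.

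H19 lies on chromosome 7 (142575529 to 142578143, minus strand), with Igf2 (142650766 to 142666816, minus strand) starting 88.7 kb away. It was close to undetected in 3 groups and detected in quiescent knockdown cells. Its counts in experiments 5, 7 and 9 were 0, 0 and 2 in proliferating control, 1, 1 and 5 in proliferating knockdown, 0, 0 and 4 in quiescent control, and 22, 11 and 71 in quiescent knockdown cells. The quiescent knockdown libraries were each above every library of the other 3 groups. H19 passed the low-count filter through the quiescent knockdown libraries, the group in which it is high, so the tests that involve this group compare it with libraries near 0 and are given as descriptions. Knockdown in quiescent cells gave a log2 fold change of 4.43 (SE 1.20, adjusted p = 0.151) without the block, and 4.57 (SE 0.57, adjusted p = 0.00383) with the replicate block. The blocked adjusted p was 0.0430 without experiment 5, 0.0609 without experiment 7 and 0.163 without experiment 9. In experiment 9 the ratio was 17.4 (6.52 to 65.8). In experiments 5 and 7, against control libraries at 0, the exact 95% lower limits of the ratio were 3.60 and 2.45.

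With quiescence in knockdown cells the change of H19 was 3.76 (SE 1.11, adjusted p = 0.0378) without and 3.81 (SE 0.52, adjusted p = 0.000409) with the block. This contrast and the interaction also involve the group through which H19 passed the filter. Their calls, kept or lost, are descriptions only. With 1 of the 12 libraries left out in turn the call was kept in 6 fits, and the change ran from 2.55, without the quiescent knockdown library of experiment 9, to 4.88, without the proliferating knockdown library of experiment 9. The call was also lost without the proliferating control library of experiment 7 (3.76), the proliferating knockdown library of experiment 5 (3.41) or 7 (3.42) and the quiescent knockdown library of experiment 5 (4.075). In control cells H19 did not pass, at 1.00 (SE 1.66, adjusted p = 0.711). The interaction did not pass, at 2.87 (SE 1.42, adjusted p = 0.999) with the block.

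The other genes within 500 kb of the H19 start, a window added after the values of H19 were seen, numbered 24 with H19 and Igf2, and 8 of the 24 had no count. For knockdown in quiescent cells 11 were tested. H19 is not counted among the calls, because its values prompted the window. It also passed the low-count filter through the group in which it is high. Of the other tested genes only Lsp1 passed with the block. None passed without the block, and of all genes 3.55% passed with the block and 0.435% without. Lsp1, an actin-binding protein gene 117 kb to the other side of H19, had 18 counts over the 3 quiescent control libraries and 90 over the 3 quiescent knockdown libraries, a log2 fold change of 2.03 (adjusted p = 0.0436 with the block, 0.232 without). Proliferating cells held 89 counts of Lsp1 in control and 152 in knockdown libraries, so quiescent control was its lowest group. With quiescence in knockdown cells Lsp1 changed by -0.87 (adjusted p = 0.0995 with the block), whereas H19 and Igf2 rose. Tnni2 at 1.15 (adjusted p = 0.0883) and Syt8 at 0.73 (adjusted p = 0.0709) did not pass. Mrpl23, between Lsp1 and H19, was at 0.10, and Cd81 and Tssc4, near the far edge beyond Igf2, at -0.26 and 0.44. Mir675, which lies within H19, and Ins2 had no count.

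**Figure D3:**
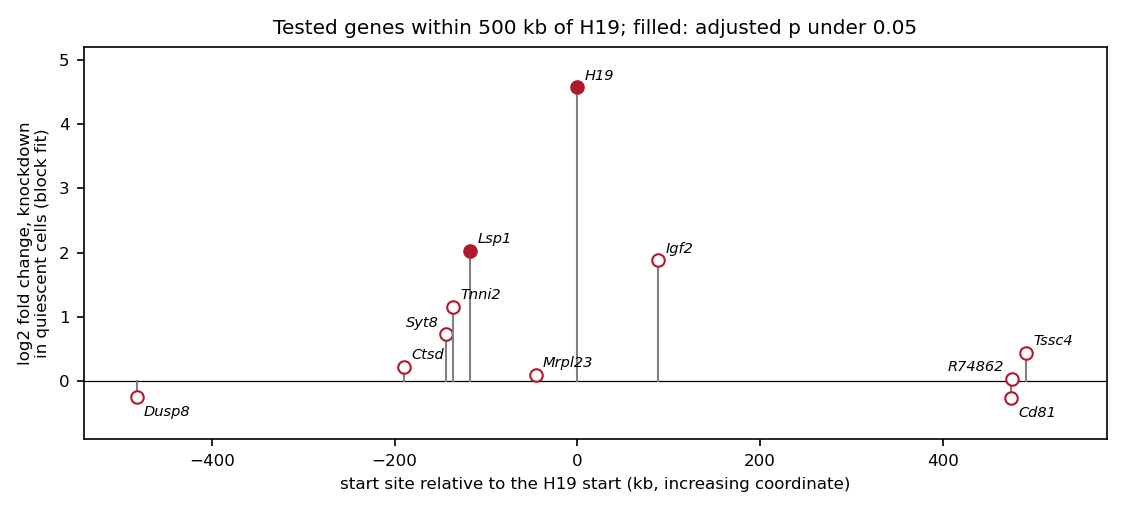
Blocked log2 fold change with knockdown in quiescent cells for the 11 tested genes within 500 kb of H19, by distance of the start site from that of H19 in kb. H19 at 4.57 and Lsp1 at 2.03 are filled (adjusted p under 0.05), and Igf2 at 1.88 is not.

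Igfbp3 (chromosome 11, 7206086 to 7213923, minus strand) encodes the main carrier of IGFs in serum, and its transcript fell with quiescence in both hairpin groups. Proliferating control cells had 213, 203 and 481 CPM in experiments 5, 7 and 9, and quiescent control cells had 81.5, 114 and 122 CPM. With the Stag2 hairpin the values were 176, 150.1 and 239 CPM in proliferation and 74.8, 70.8 and 71.8 CPM in quiescence. The proliferating and quiescent libraries did not overlap. Without the block the log2 fold change was -1.497 (SE 0.31, adjusted p = 0.00707) in control and -1.38 (SE 0.31, adjusted p = 0.0116) in knockdown cells. It passed in both in each of the 12 fits that left out 1 library and with each experiment left out of the blocked fit. In control cells it was smallest, at -0.97, without the proliferating control library of experiment 9. The change with quiescence did not differ detectably between hairpins, with an interaction of 0.12 (SE 0.43, adjusted p = 1.00).

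Igfbp3 was also lower with Stag2 knockdown in 3 of 3 experiments in each state, without passing the threshold. The within-experiment differences in log2 CPM were -0.28, -0.43 and -1.01 in proliferating cells and -0.12, -0.69 and -0.76 in quiescent cells. Averaged over both states the change was -0.61 (SE 0.22, unadjusted p = 0.0171, adjusted p = 0.273, edgeR) without and -0.56 (SE 0.16, adjusted p = 0.0780) with the block.

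Igfbp7 (chromosome 5, 77349240 to 77408041, minus strand), whose protein is a component of the extracellular matrix, varied most with the experiment. In experiment 9 it measured 29.2 CPM in proliferating control, 58.3 in proliferating knockdown, 35.5 in quiescent control and 51.3 in quiescent knockdown cells. In experiment 5 the same groups had 13.5, 12.5, 4.14 and 4.17 CPM, and in experiment 7 they had 7.62, 7.74, 2.39 and 4.23 CPM. Each library of experiment 9 was above all 8 others. In experiments 5 and 7 the quiescent libraries were lower than the proliferating ones, and in experiment 9 the ranges of the 2 states overlapped. In control cells the difference with quiescence was -1.68 and -1.63 on the log2 scale in experiments 5 and 7, and 0.28 in experiment 9. No contrast passed over all 12 libraries, with -1.01 (SE 0.40, adjusted p = 0.0727) for quiescence in control cells with the block and -0.26 (SE 1.19, adjusted p = 0.903) without it. With experiment 9 left out of the blocked fit, Igfbp7 passed at -1.68 (adjusted p = 0.00806) in control and -1.22 (adjusted p = 0.0228) in knockdown cells. Whether the quiescence change of Igfbp7 itself differed between experiments was not tested.

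A test of the experiment term, added after the values were seen, passed for 3 of the 5 tested members: Igfbp7 (adjusted p = 0.000510), Igf2 (0.00253) and Igf2r (0.00326). Igf1r (0.0593) and Igfbp3 (0.0852) did not pass. The value for H19 (0.00655) is a description only, because H19 passed the low-count filter through the quiescent knockdown libraries. Of all 12406 genes tested, 21.1% passed. Relative to the mean of experiments 5 and 7, Igf2 in experiment 9 was higher by 2.09 to 2.88 in log2 CPM over the 4 groups, and Igfbp7 by 1.51 to 3.57. Igf2r was lower, at -2.03 to -0.60.

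**Figure D4:**
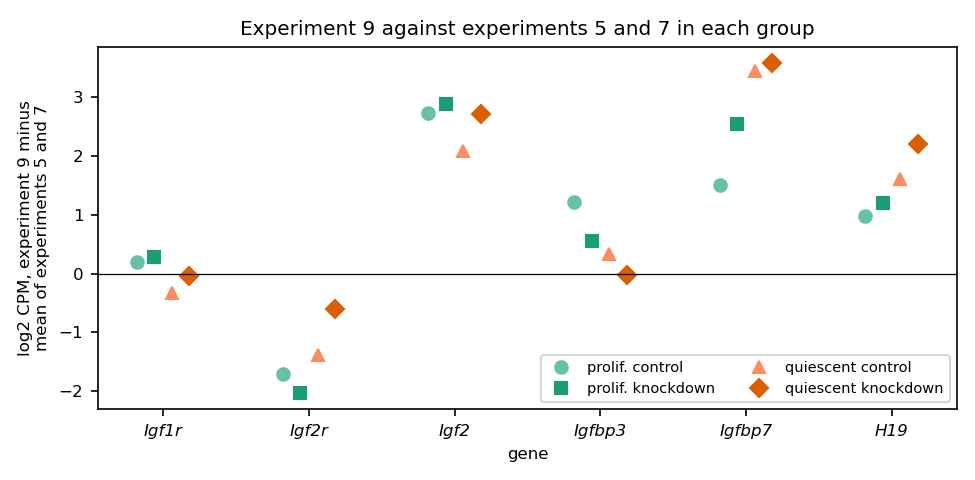
Difference in log2 CPM between experiment 9 and the mean of experiments 5 and 7 for 5 members and H19, with 1 point per group. Igf2, Igfbp7 and H19 lie above 0 and Igf2r below 0 in all 4 groups, and Igf1r lies near 0.

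Counted over the axis, 1 of the 5 tested members passed for quiescence in control cells without the block, against 20.0% of all genes, and 2 with it (Igf2 higher, Igfbp3 lower), against 35.3%. In knockdown cells 1 passed, against 18.4%, and 3 with the block (Igf2r and Igf2 higher, Igfbp3 lower), against 33.0%. The median change of the 5 in control cells was 0.04 without the block, beside 0.00 for all genes. For knockdown none of the 5 passed in either fit. Of all genes, 0.0242% passed in proliferating cells in both fits, 0.435% in quiescent cells (3.55% with the block) and 0.556% averaged over both states (4.03% with the block). For the interaction 0% passed in both fits.

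Among 8 further extracellular regulators, Igfbp1, Igfals, Pappa and Pappa2 had no count, and Htra1 and Stc2 were tested. Htra1, a secreted serine protease that cleaves IGF binding proteins, resembled Igfbp3 in its order of groups. It measured 242, 270.6 and 495 CPM in proliferating control cells (experiments 5, 7 and 9), 174, 118 and 121 in proliferating knockdown, 91.8, 92.0 and 83.6 in quiescent control and 47.9, 68.5 and 50.04 in quiescent knockdown cells. No 2 of the 4 groups overlapped. It fell with quiescence by 1.91 (SE 0.27, adjusted p = 0.000787) in control and by 1.31 (SE 0.26, adjusted p = 0.00650) in knockdown cells on the log2 scale. With knockdown averaged over both states it fell by 0.99 (SE 0.19, adjusted p = 0.0442), a call that was retained in 3 of 12 fits without 1 library, with changes from -1.09 to -0.79. Stc2, an inhibitor of PAPP-A, ranged from 4.02 to 42.0 CPM and passed no contrast.

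The insulin receptor Insr, which can pair with Igf1r in hybrid receptors, rose with quiescence in control cells by 0.52 (SE 0.15, adjusted p = 0.0319), which passed in 8 of 12 fits without 1 library and not without the proliferating control library of experiment 7 (0.50) or 9 (0.41) or the quiescent control library of experiment 5 (0.48) or 7 (0.52). In knockdown cells the change was 0.44 (SE 0.15, adjusted p = 0.0647), and 0.45 (SE 0.13, adjusted p = 0.0234) with the block. Insr ranged from 57.9 to 83.3 CPM over the proliferating libraries and from 86.6 to 106 over the quiescent ones, which did not overlap. The genes for the insulin receptor-related receptor (Insrr) and for insulin (Ins1 and Ins2) had no count.

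Of 28 genes of the pathway below the IGF1 receptor, 27 were tested. Akt1 and Shc1 were the 2 of the 27 that fell with quiescence in control cells, and both also fell in knockdown cells. Of all genes, 20.0% passed for quiescence in control cells and 18.4% in knockdown cells, in either direction. Counted as lower only, 1448 of 12406 genes passed in control cells and 1338 in knockdown cells. Akt1, an AKT kinase, fell by 0.40 (SE 0.10, adjusted p = 0.0178, past the threshold in 9 of 12 fits without 1 library), from 399 CPM ± 15.7 to 303 ± 12.1 (SD, n = 3). It missed without the proliferating control library of experiment 7 (-0.37) and without the quiescent control library of experiment 5 (-0.36) or 7 (-0.38). Shc1, the adaptor to the MAPK branch, fell by 1.10 (SE 0.19, adjusted p = 0.00269), from 418 CPM ± 58.4 to 194 ± 41.8. The median of the 27 was 0.14 in control cells, beside 0.00 for all genes.

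With the replicate block Irs2, Pik3r1 and Tsc2 rose in quiescent control cells, and Irs2 and Tsc2 in knockdown cells. Of all genes, 35.3% passed with the block in control cells and 33.0% in knockdown cells, in either direction. Counted as higher only, 2083 of 12406 genes passed in control cells and 1967 in knockdown cells. Irs2, an adaptor that couples both receptors to PI3K, had 17.5, 17.3 and 61.1 CPM in proliferating control cells and 100.3, 80.8 and 120 CPM in quiescent control cells of experiments 5, 7 and 9. The groups did not overlap, and experiment 9 was the highest library in each. Its blocked change was 1.93 (SE 0.28, adjusted p = 0.000599), against 1.65 (SE 0.61, adjusted p = 0.0778) without the block. Irs1, the other main adaptor, did not pass, at -0.39 (SE 0.50, adjusted p = 0.613).

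With knockdown none of the 27 passed without the block. Pik3r2, a regulatory subunit of PI3K, was lower in knockdown quiescent cells in 3 of 3 experiments, at -0.75 (SE 0.20, adjusted p = 0.145), and passed with the block at -0.75 (SE 0.13, adjusted p = 0.0140). It was the only 1 of the 27 to pass there with the block, beside 3.55% of all genes. The average over both states includes this quiescent difference, and in it Pik3r2 passed with the block only, beside 4.03% of all genes. In proliferating cells alone Pik3r2 passed in neither fit.

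**Figure D5:**
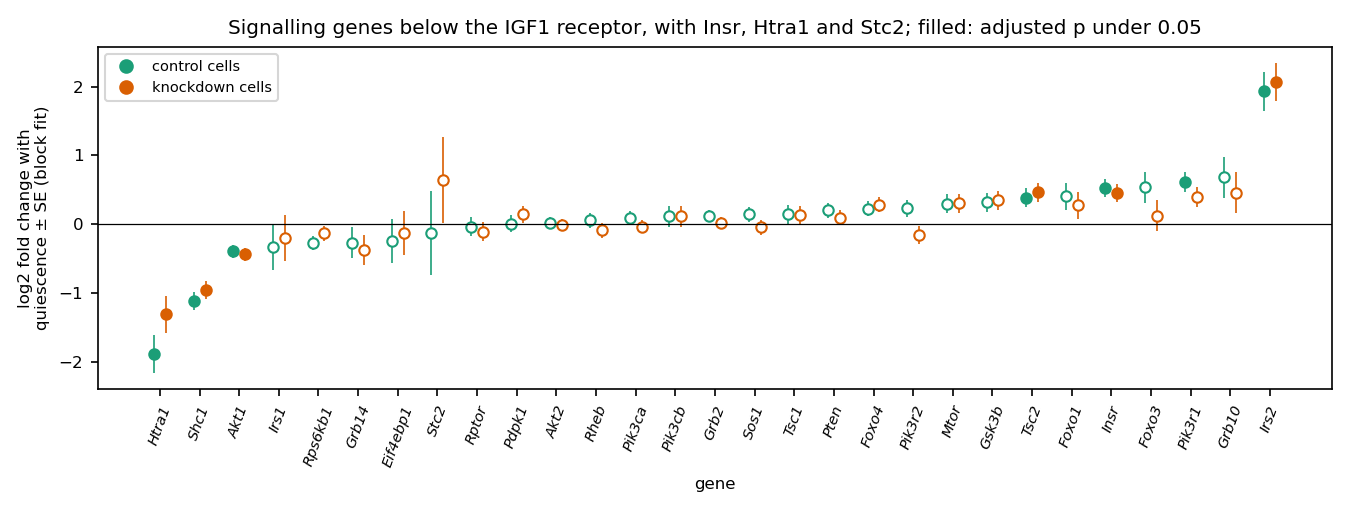
Blocked log2 fold change with quiescence, with its SE, in control (green) and knockdown (orange) cells for tested pathway genes with Insr, Htra1 and Stc2. Filled points have an adjusted p under 0.05. Htra1, Shc1 and Akt1 lie below 0 and Irs2 above 0 in both.

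The genes whose log2 CPM followed each member most closely over the 12 libraries were named among genes that averaged at least 2 in log2 CPM. For Igfbp3 these were Immt (r = 0.980), Nfyb (0.974) and Arf6 (0.969). For Igfbp7 they were Paox (0.982) and the Y-linked Kdm5d (0.946) and Ddx3y (0.944). For Igf2r they were Dagla (0.972), Tbc1d22b (0.971) and Skiv2l (0.963), for Igf2 Tmem176b (0.951), Lgals3bp (0.943) and Herpud2 (0.942), and for Igf1r Pan2 (0.902), Gcfc1 (0.879) and Guf1 (0.878). These correlations are descriptions over 12 libraries that share groups and experiments.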

How the data were processed

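RNA was sequenced in 12 libraries of NU1 cells from polyadenylated RNA with a stranded kit, per the labels' protocols. The authors deposited raw counts per gene symbol in 1 table, and 5762 of its 23337 rows had no count. The submitters' processing notes name Bowtie, TopHat, HTSeq and DESeq2 and the build mm10. Versions, the annotation and strand use in counting are not given in the sources used here.

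Counts were analysed with edgeR 4.0.16 in R 4.3.3. Genes were kept by filterByExpr (minimum count 10), which left 12406, scaled by TMM and fitted by glmQLFit as 4 group means over 12 libraries. Contrasts were tested by glmQLFTest with Benjamini-Hochberg adjustment over all tested genes, at a threshold of 0.05. SEs are the fold change over the root of F. Log2 CPM used a prior count of 2. The replicate block adds the experiment, which pairs the libraries since the labels give it as a batch. No 2 replicates agreed within sampling noise. The code was tested on simulated data. Gene positions and exon lengths came from GENCODE M21. Alternatives were the block, DESeq2 1.42.0, other scalings and filters, fits to the libraries of 1 contrast, and leaving out each library or, in blocked fits, each experiment. Named genes are the members, Stag2, Mki67, genes of the pathway and marker lists, and the 3 genes most alike each tested member. Members and lists were chosen with earlier results of these data known. 1 gene of the pathway list is not reported here.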

Additional observations from a re-analysis of the deposited data

How the results depend on the processing

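The Igfbp3 decrease with quiescence passed under every alternative run. With the replicate block the genes past the threshold numbered 440 in place of 54 for knockdown in quiescent cells, 4374 in place of 2481 for quiescence in control cells, 4096 in place of 2279 for quiescence in knockdown cells and 500 in place of 69 for the averaged knockdown. Members that passed numbered 2 in place of 1 in control and 3 in place of 1 in knockdown cells for quiescence. The block changed no other count of members. DESeq2 called 12 genes for knockdown in proliferating cells, 378 in quiescent cells and 379 on average, and 2 members for quiescence in knockdown cells. Fits to only the libraries of a contrast called 1 gene for knockdown in proliferating cells and 1582 for quiescence in control cells. Near-zero changes turned sign: Igf1r for quiescence in knockdown cells became -0.0097 with the block and -0.0061 without the low-count filter, and with the block the interaction became 0.089 for Igf2r and 0.23 for Igfbp7. The cause was not tested.

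Leaving out 1 library, or 1 experiment from the blocked fit, gave these ranges for the results named here. For knockdown in proliferating cells they were 1 to 3 genes, -0.18 to 0.082 for Igf1r, -0.60 to 0.29 for Igf2r, -2.49 to 2.69 for Igf2 and -0.74 to 1.31 for Igfbp7. In quiescent cells knockdown gave 5 to 64 genes, -0.25 to 0.076 for Igf1r, -0.60 to 0.14 for Igf2r, 0.44 to 3.19 for Igf2, 3.22 to 8.07 for H19 and -1.74 to 2.61 for Igfbp7. Quiescence in control cells gave 1394 to 3078 genes, 1 to 3 members, -0.11 to 0.23 for Igf1r, 0.43 to 4.17 for Igf2, 0.25 to 0.98 for Igf2r and -2.37 to 0.41 for Igfbp7. In knockdown cells quiescence gave 1186 to 2408 genes, 1 to 3 members, -0.17 to 0.15 for Igf1r, 1.93 to 6.10 for Igf2, 0.084 to 1.12 for Igf2r, 2.55 to 4.88 for H19 and -2.64 to 0.98 for Igfbp7. The interaction ran from -0.22 to 0.12 for Igf1r, -0.55 to 0.43 for Igf2r, -0.73 to 4.45 for Igf2, -0.41 to 0.33 for Igfbp3 and -2.38 to 1.97 for Igfbp7. Averaged over both states knockdown gave 12 to 96 genes, -0.14 to 0.023 for Igf1r, -0.43 to 0.0091 for Igf2r, -0.27 to 2.32 for Igf2 and -0.55 to 1.62 for Igfbp7. For Igf2, Igfbp7 and H19 the extremes mostly came from leaving out a library of experiment 9, where their levels were highest in every group. With all of experiment 9 left out of the blocked fit, the change with quiescence in knockdown cells was 4.53 for Igf2, 3.66 for H19 and -1.22 for Igfbp7. Depth limits Igf1, Igfbp2, Igfbp4, Igfbp5 and Igfbp6, which did not pass the filter and passed no contrast in the fit without it.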

Other observations

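The Igf2 mRNA-binding proteins, which bind Igf2 transcripts among others, were looked at after the members. Igf2bp2 fell with quiescence in both hairpin groups, by 0.73 (SE 0.13, adjusted p = 0.00284) in control and by 0.65 (SE 0.13, adjusted p = 0.00546) in knockdown cells on the log2 scale (edgeR, without the block). Igf2bp1 passed with the replicate block only, at -1.09 (SE 0.19, adjusted p = 0.00162) in control and -1.60 (SE 0.19, adjusted p = 0.000209) in knockdown cells, and it differed between experiments (adjusted p = 0.000161).

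Of 20 other imprinted genes, a list added after the values of Igf2 and H19 were seen, 12 passed the filter. With the block 0 of the 12 passed for knockdown in quiescent cells, 6 for quiescence in control cells and 7 in the test of the experiment term. Over all genes the shares were 3.55%, 35.3% and 21.1%. Phlda2 had the largest value for knockdown in quiescent cells, at 1.14 (SE 0.42, adjusted p = 0.154). Sgce and Peg10 are neighbours on chromosome 6. Sgce had 155 to 593 counts per library in experiment 9 and 7 to 27 in experiments 5 and 7, and Peg10 had 58 to 162 counts against 1 to 17.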
